A study of Mus musculus with 115 samples.

Results

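The genes described here encode proteins of the perineuronal net and related matrix proteoglycans: the lecticans aggrecan (Acan), brevican (Bcan), neurocan (Ncan) and versican (Vcan), the link proteins Hapln1 and Hapln4, tenascin-R (Tnr), and the testicans Spock1, Spock2 and Spock3. They are 10 of the 22870 genes in the authors' count tables, and all 10 are listed there. They were chosen by family and with the levels of these same cells already known, above all the levels in kainic acid (KA) cells against saline cells, so each difference between groups is given as a description, with no test.

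Single dentate granule cells of Rbp4-Cre mice were sampled by patch pipette on the injected side 2 weeks after the injections, with or without mCherry. All mice carried a retrograde AAV with EGFP in the ventral hippocampus of the other side, so EGFP+ cells are those whose axon took up that virus, and an EGFP- cell is one in which no label was seen. On the sampled side the mice received either KA, which activates a class of glutamate receptors and provokes seizures, or saline, each together with an AAV for Cre-dependent mCherry. The cells kept by the authors' quality control number 95: 27 KA EGFP+, 36 KA EGFP-, 5 saline EGFP+ and 27 saline EGFP- cells, which the study's design text attributes to 9, 3, 3 and 3 mice. That text gives 57 saline EGFP- cells as passed, and the table used here holds 27. No label names the mouse of a cell, so each group counts as 1 sample, and the SD given throughout is the spread over its cells.

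In the perineuronal net, lecticans carry chondroitin sulphate chains and bind hyaluronan at the cell surface through link proteins, and tenascin-R cross-links them into a lattice. Nets are best known around parvalbumin interneurons, where they close developmental plasticity, and aggrecan is the lectican on which their assembly depends. Testicans are secreted proteoglycans with a SPARC-like calcium-binding module that are strongly expressed by neurons and were first described as modulators of proteases.

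Levels are counts scaled to 1000000 counts of the cell (CPM), or log2(CPM+1) where means and differences are given. A difference is the mean log2(CPM+1) of the first group minus that of the second, and "at least 1 higher" or "lower" means 1 or more on that scale. Titles of the samples run in a first series (1 to 48), which holds KA cells only, and a second series of higher numbers, which holds all saline cells with 3 KA EGFP+ and 15 KA EGFP- cells. KA EGFP- cells had a median of 6974 genes with a count in the first series and 3707 in the second, against 4448 in saline EGFP- cells. Only the second series holds both treatments, and there KA and saline cells sit in separate runs of titles, so that treatment and run cannot be told apart. Of the 95 kept cells 13 carry a label of failed quality control, and 12 of the 20 cells left out carry a label of passed, so the differences were also taken over the 82 cells that both sources keep. Depth lay between 1277978 and 56183007 counts per cell. Of 10 granule cell markers all 10 were counted in at least 1 cell of the KA EGFP+, KA EGFP- and saline EGFP- groups. In saline EGFP+ cells this held for 9. Some were counted in few cells. Of 36 KA EGFP- cells 1 counted Dsp, 2 Plk5, 3 Maml2, 10 C1ql2 and 10 Stxbp6. In the same 36 cells 24 counted Dock10, 26 Prox1, 27 Calb1, 29 C1ql3 and 29 Rfx3. Of 27 KA EGFP+ cells 3 counted Dsp and 3 Plk5. The summed level of the 10 markers had a median of 1113 CPM in KA EGFP+, 948 CPM in KA EGFP-, 2171 CPM in saline EGFP+ and 3543 CPM in saline EGFP- cells. At least 0.1% of the counts fell in microglia markers in 10 of 27 KA EGFP+, 5 of 36 KA EGFP-, 5 of 5 saline EGFP+ and 12 of 27 saline EGFP- cells.

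In EGFP- granule cells, Spock3, Acan, Spock1, Ncan and Spock2 were at least 1 higher after KA than after saline, which is 5 of the 10 genes, and none was at least 1 lower. Across all 9471 genes counted in 20% or more of these cells, 28.8% were at least 1 higher and 9.64% at least 1 lower. The median difference of the 10 genes was 0.91, against 0.43 over these 9471 genes and 0.09 over all genes with any count. Inside the second title series the genes at least 1 higher were Spock3, Acan, Spock1, Tnr and Ncan, again 5 of 10, whereas Spock2 was at least 1 lower. In that series 9.08% of 8175 genes were at least 1 higher and 36.4% at least 1 lower. The median difference there was 0.77 for the 10 genes, -0.58 for the 8175 genes and -0.17 for all genes with any count. Acan, Ncan, Spock1 and Spock3 were thus at least 1 higher both with all titles and inside the second series. In the EGFP- cells 7 of the 10 genes were counted in 20% or more of the cells, and Acan, counted in 4 of the 42 cells of the second series, was not among the 8175 genes there.

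**Figure D1:**
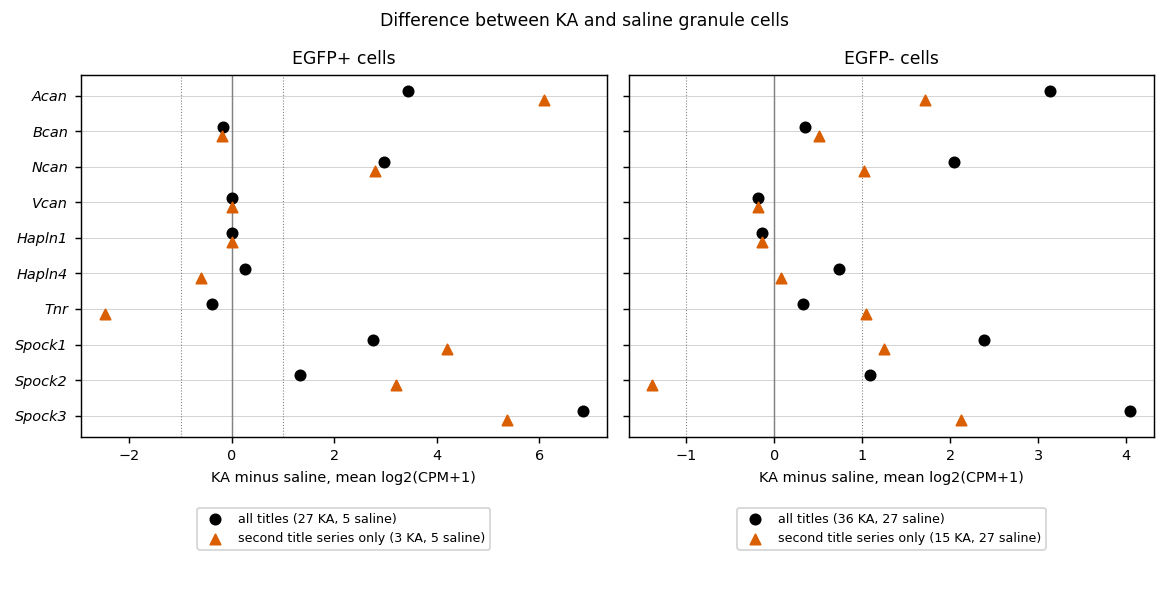
Difference of mean log2(CPM+1) between KA and saline cells for the 10 genes, in EGFP+ cells (left) and EGFP- cells (right), with all titles (circles) and inside the second title series (triangles); dotted lines mark -1 and 1. In EGFP- cells Spock3 lies at 4.05 with all titles and 2.12 in the second series, while Spock2 lies at 1.09 and -1.38.

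The promoters of these 4 genes are shown because their transcripts stood higher after KA under both readings. Each is the RefSeq window of 300 bases on GRCm38.p6, 250 before to 50 after the annotated start, read along the gene's strand, and capitals mark CANNTG (the E-box) or TATAAA on either strand.
Acan, chr7:79052976-79053275, plus strand: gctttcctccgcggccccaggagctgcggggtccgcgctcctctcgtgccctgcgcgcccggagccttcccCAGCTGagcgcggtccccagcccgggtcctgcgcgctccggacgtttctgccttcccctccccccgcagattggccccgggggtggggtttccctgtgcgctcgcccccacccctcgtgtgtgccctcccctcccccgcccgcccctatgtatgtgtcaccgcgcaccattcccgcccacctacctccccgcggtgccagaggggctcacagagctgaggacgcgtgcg
Ncan, chr8:70120795-70121094, minus strand: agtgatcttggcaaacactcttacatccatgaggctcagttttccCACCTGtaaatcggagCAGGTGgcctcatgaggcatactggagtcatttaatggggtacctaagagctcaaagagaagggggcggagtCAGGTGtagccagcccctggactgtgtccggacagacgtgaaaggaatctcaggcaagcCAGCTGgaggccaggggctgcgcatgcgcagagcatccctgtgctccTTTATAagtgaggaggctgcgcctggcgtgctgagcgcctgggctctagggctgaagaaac
Spock1, chr13:57908283-57908582, minus strand: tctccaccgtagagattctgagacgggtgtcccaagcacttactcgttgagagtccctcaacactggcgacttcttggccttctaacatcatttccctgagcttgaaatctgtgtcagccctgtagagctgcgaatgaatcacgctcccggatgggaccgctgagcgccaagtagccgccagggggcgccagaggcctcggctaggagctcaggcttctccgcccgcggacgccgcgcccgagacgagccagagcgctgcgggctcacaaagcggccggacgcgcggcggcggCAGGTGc
Spock3, chr8:62950982-62951281, plus strand: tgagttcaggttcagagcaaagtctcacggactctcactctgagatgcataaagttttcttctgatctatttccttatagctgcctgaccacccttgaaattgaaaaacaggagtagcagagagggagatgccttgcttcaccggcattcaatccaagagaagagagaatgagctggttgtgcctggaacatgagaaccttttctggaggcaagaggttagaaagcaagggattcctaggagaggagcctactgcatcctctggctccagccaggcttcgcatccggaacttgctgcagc
CANNTG occurred at 1 place in the Acan window (-179 from the start), at 1 in that of Spock1 (position 44) and at 4 in that of Ncan, which also held TATAAA on the opposite strand at -11. The Spock3 window shown held none of the motifs searched, and the window of the other RefSeq start of Spock3 had 1 CANNTG at -67. Of all 32851 promoters of this length, 72.3% held CANNTG and 13.6% TATAAA. The activity-related motifs TGAGTCA (AP-1), TGACGTCA (cAMP response element) and GCGNGGGCG (Egr) were searched on both strands and occurred in 5.20%, 1.79% and 5.55% of all promoters. None of these letters was found in the windows of the 9 genes matched by symbol, which are all but Hapln4. The GC content was 74% in the Acan window, 64% for Spock1, 56.7% for Ncan and 49% for Spock3, against a median of 52.7% over all promoters.

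Acan (ENSMUSG00000030607, chromosome 7, 79053483 to 79115099, plus strand, GRCm38), the core lectican of nets, was counted in KA cells and in no kept saline cell. It ranged from 0 to 787 CPM with a median of 4.41 in KA EGFP+ cells and from 0 to 422 CPM with a median of 3.97 in KA EGFP- cells, and stood at 0 in all 5 saline EGFP+ and all 27 saline EGFP- cells. Acan was counted in 19 of 27 KA EGFP+ and 23 of 36 KA EGFP- cells, together 42 of 63, or 66.7% (95% Clopper-Pearson interval 53.7 to 78.05%). With 0 of 32 saline cells the upper Clopper-Pearson limit of the share was 10.9%. High and low cells lay side by side within both KA groups, and the cells at 0 there overlap those of the saline groups. Among the cells that quality control left out, 1 of 14 saline EGFP- cells counted Acan, at 12.4 CPM. Pooled over cells, Acan stood at 77.5 pooled CPM (95% Poisson interval 76.1 to 78.8) in KA EGFP+ cells and 57.1 pooled CPM (95% Poisson interval 56.2 to 58.0) in KA EGFP- cells. Set against a floor of 3 counts over the saline group, the ratio is 413-fold in EGFP+ cells and 2217-fold in EGFP- cells. It is not a strict lower bound, because PCR reads are not independent molecules. It also pools both title series, and the first holds no saline cells. Of the Acan counts of KA EGFP- cells in the second series, 84.4% came from 1 cell. In the KA EGFP+ group 1 cell gave 36.4% of all Acan counts, and without it the pooled level was 51.1 CPM and the ratio 272.4-fold. In the KA EGFP- group 1 cell gave 28.1%, and without it the level was 42.7 CPM and the ratio 1657-fold. The Poisson intervals take reads as independent and the Clopper-Pearson intervals take cells as independent, and neither covers the spread between mice.

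The mean log2 level of Acan was 3.44 (SD 3.22) in KA EGFP+ cells and 3.13 (SD 3.18) in KA EGFP- cells. In the EGFP- cells the title series stood apart, and Acan was counted in 19 of 21 cells of the first series and 4 of 15 of the second. Those 4 cells had 6.70, 94.8, 168 and 422 CPM, and the mean log2 level of the 15 cells was 1.71. In the second series Acan was counted in 3 of 8, 1 of 2 and 0 of 5 KA EGFP- cells of the successive KA runs of titles. All 3 KA EGFP+ cells of the second series counted it, at 15.7, 82.9 and 223.4 CPM. After each cell was thinned to 1000000 counts, Acan was still counted in 16 KA EGFP+ and 21 KA EGFP- cells.

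Ncan (ENSMUSG00000002341, chromosome 8, 70093085 to 70120873, minus strand), the lectican of developing neural tissue, was also higher after KA but was not absent after saline. It ranged from 0 to 832 CPM with a median of 34.7 in KA EGFP+ cells and from 0 to 283.9 CPM with a median of 14.8 in KA EGFP- cells. In saline EGFP+ cells it had 0, 0, 0, 0.725 and 5.19 CPM, and in saline EGFP- cells it ranged from 0 to 102 CPM with a median of 0.463. The groups overlap: Ncan was counted in 25 of 36 KA EGFP- and 20 of 27 saline EGFP- cells, and they differed in how many cells stood high. At least 10 CPM were reached in 14 of 27 KA EGFP+ and 21 of 36 KA EGFP- cells, and in 0 of 5 saline EGFP+ and 5 of 27 saline EGFP- cells. The mean log2 level was 3.46 (SD 2.88) in KA EGFP- cells and 1.41 (SD 1.83) in saline EGFP- cells, a difference of 2.04, or 1.02 inside the second series. Both differences are smaller than the SD over KA cells. Over the cells that both quality-control sources keep (30 KA and 22 saline EGFP- cells), the differences were 3.58 for Acan, 2.54 for Ncan, 2.80 for Spock1, 1.37 for Spock2 and 3.92 for Spock3. Without the cells that hold microglia markers (31 KA and 15 saline EGFP- cells left), they were 3.30 for Acan, 1.96 for Ncan, 2.46 for Spock1, 1.22 for Spock2 and 4.52 for Spock3.

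Bcan, the lectican most tied to mature brain matrix, and Vcan, a lectican of wider tissue distribution, were near 0 in these cells. Counts of Bcan were found in 3 of 63 cells after KA and 3 of 32 after saline. In 2 KA EGFP- cells it had 96.8 and 533 CPM, and no other of the 95 cells reached 10 CPM; the highest saline cell had 3.99 CPM. Vcan was counted in 0 of 63 KA cells (upper Clopper-Pearson limit 5.69%) and in 2 of 27 saline EGFP- cells, of which the higher had 29.9 CPM. The differences between KA and saline EGFP- cells were 0.35 for Bcan and -0.19 for Vcan.

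**Figure D2:**
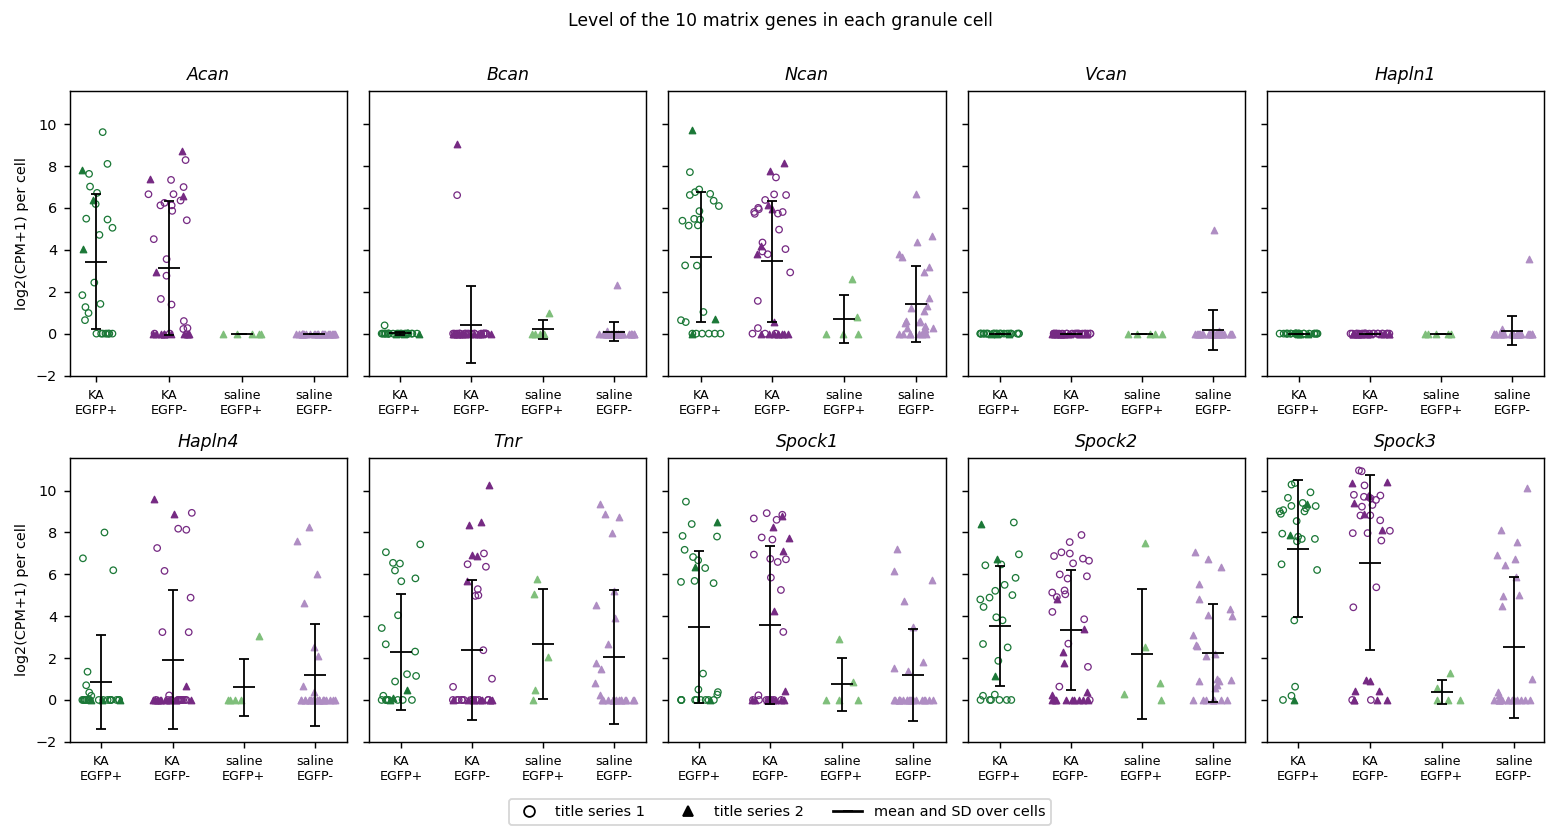
Level of each gene in each of the 95 cells as log2(CPM+1), by group, with open circles for the first and filled triangles for the second title series; bars show the mean and SD over cells. Acan lies at 0 in all 32 saline cells, and Spock3 reaches 10.96 in KA EGFP- cells, the highest level of the 10 genes.

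Of the link proteins, which clamp lecticans to hyaluronan, Hapln1 was almost absent and Hapln4 was present in a minority of cells of every group. Hapln1 was counted in 0 of 63 KA cells and in 2 of 27 saline EGFP- cells, up to 10.6 CPM. Hapln4 (ENSMUSG00000007594, chromosome 8, 70083457 to 70090862, plus strand), next to Ncan on the chromosome, was counted in 7 of 27 KA EGFP+, 12 of 36 KA EGFP-, 1 of 5 saline EGFP+ and 8 of 27 saline EGFP- cells. Its median was 0 CPM in all 4 groups, and its highest cells had 254.6 CPM in the KA EGFP+ group, 765 in KA EGFP-, 7.25 in saline EGFP+ and 301 in saline EGFP- cells. The mean log2 level was 1.93 (SD 3.32) in KA EGFP- cells and 1.19 (SD 2.45) in saline EGFP- cells, a difference of 0.73 with all titles and 0.08 in the second series. The groups overlap over almost their whole range.

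Tnr, the tenascin of nets and of the nodes of Ranvier, was high in some cells of every group, and KA and saline cells overlap over nearly the whole range. It ranged from 0 to 172 CPM with a median of 0.842 in KA EGFP+ cells and from 0 to 1239 CPM with a median of 0 in KA EGFP- cells. In saline EGFP+ cells it had 0, 0.371, 3.13, 32.7 and 53.6 CPM, and in saline EGFP- cells it ranged from 0 to 662 CPM with a median of 0. The difference between KA and saline EGFP- cells was 0.32 with all titles and 1.05 inside the second series, where 6 of 15 KA and 12 of 27 saline cells counted Tnr. Its exons (12.9 kb in sum, chromosome 1, 159523769 to 159931729, plus strand) share 443 bases, or 3.44%, with the predicted gene Gm38039, and reads of that stretch cannot be told apart without strand information. The exons of the other 9 genes overlap no other gene.

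Among the testicans, Spock3 (ENSMUSG00000054162, chromosome 8, 62951009 to 63357103, plus strand) had both the highest level and the largest difference. It ranged from 0 to 1311 CPM with a median of 372 in KA EGFP+ cells and from 0 to 1990.0 CPM with a median of 414 in KA EGFP- cells. In saline EGFP+ cells it had 0, 0, 0, 0.492 and 1.45 CPM, and in saline EGFP- cells it ranged from 0 to 1125 CPM with a median of 0. At least 10 CPM were reached in 23 of 27 KA EGFP+ and 26 of 36 KA EGFP- cells, against 0 of 5 saline EGFP+ and 10 of 27 saline EGFP- cells, so the EGFP- groups overlap in part. The mean log2 level was 6.56 (SD 4.16) in KA EGFP- cells and 2.51 (SD 3.37) in saline EGFP- cells, a difference of 4.05, or 2.12 inside the second series. Pooled, the EGFP- cells held 546 pooled CPM (95% Poisson interval 543 to 549) after KA and 125 pooled CPM (95% Poisson interval 123 to 127) after saline. In the saline EGFP- group 68.3% of the Spock3 counts came from 1 cell, which had 1125 CPM, and without it the pooled level was 42.7 CPM.

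Spock1 (ENSMUSG00000056222, chromosome 13, 57421195 to 57908332, minus strand), testican-1, was higher after KA as well. It ranged from 0 to 707 CPM with a median of 1.39 in KA EGFP+ cells and from 0 to 483 CPM with a median of 4.42 in KA EGFP- cells. In saline EGFP+ cells it had 0, 0, 0, 0.820 and 6.53 CPM, and in saline EGFP- cells it ranged from 0 to 149 CPM with a median of 0. At least 10 CPM were reached in 13 of 27 KA EGFP+, 17 of 36 KA EGFP-, 0 of 5 saline EGFP+ and 5 of 27 saline EGFP- cells. The mean log2 level was 3.57 (SD 3.76) in KA EGFP- cells and 1.19 (SD 2.21) in saline EGFP- cells, a difference of 2.38, or 1.25 in the second series.

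Spock2, testican-2, differed in direction with the title series. It ranged from 0 to 355 CPM with a median of 14.4 in KA EGFP+ cells and from 0 to 234.2 CPM with a median of 11.5 in KA EGFP- cells. In saline EGFP+ cells it had 0, 0.221, 0.725, 4.76 and 178 CPM, and in saline EGFP- cells it ranged from 0 to 134 CPM with a median of 1.02. Within the KA EGFP- group the series stood apart: the median was 54.6 CPM in the first and 0 CPM in the second, and 20 of 21 against 6 of 15 cells counted it. The mean log2 level was 3.34 (SD 2.88) in KA EGFP- cells and 2.24 (SD 2.33) in saline EGFP- cells. The difference between KA and saline EGFP- cells was 1.09 with all titles and -1.38 inside the second series, so no direction is given for it. Over all 63 KA cells the Pearson r of Spock2 with the number of genes counted per cell was 0.50, but inside KA EGFP- cells it was 0.25 in the first series (21 cells) and -0.22 in the second (15 cells), as a description.

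**Figure D3:**
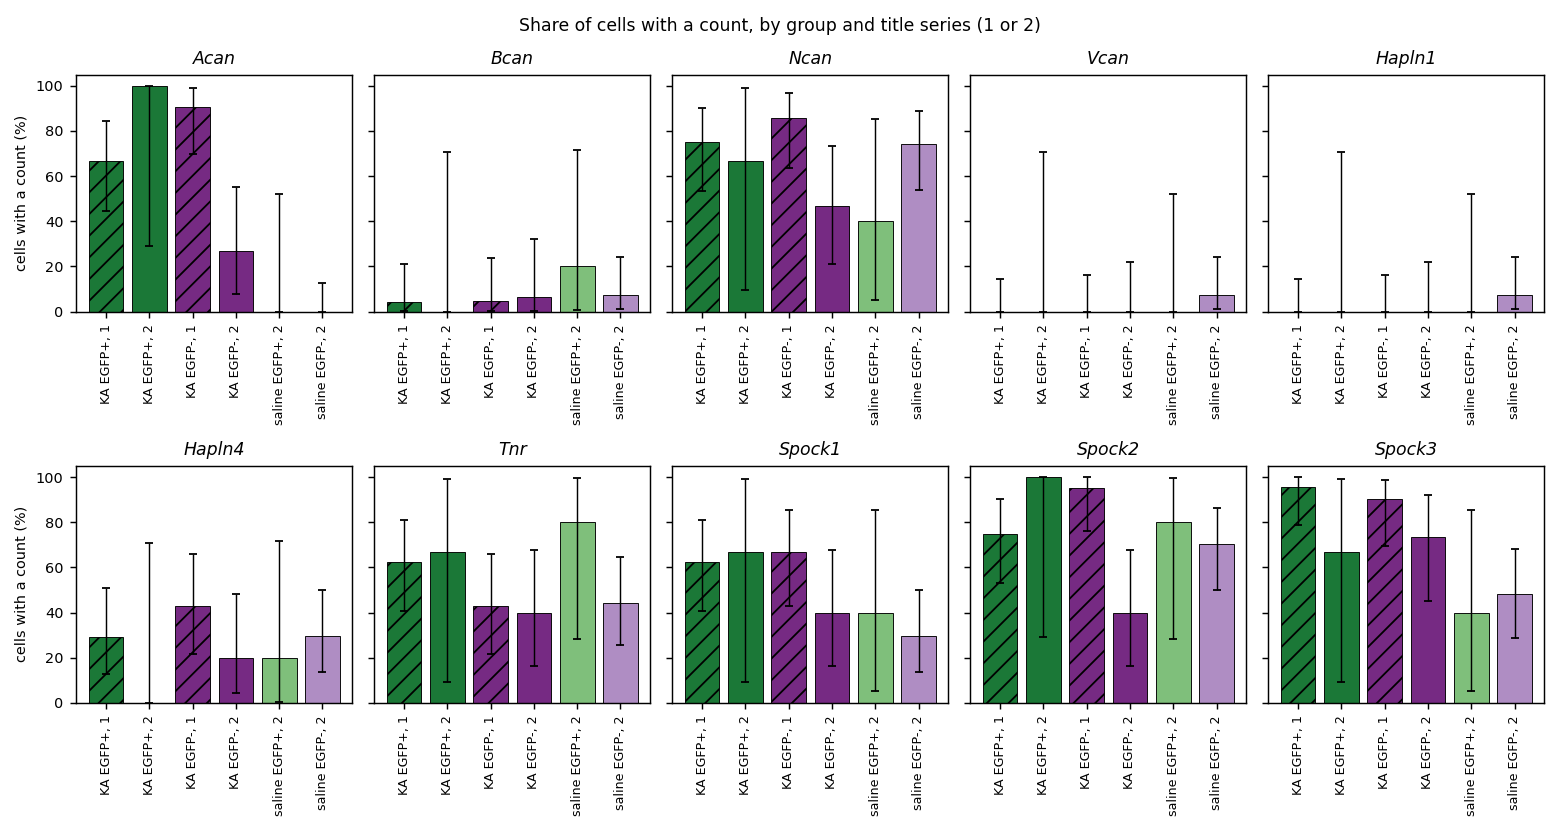
Share of cells with at least 1 count of each gene, by group and title series (1 hatched, 2 plain), with 95% Clopper-Pearson intervals that treat cells as independent. Acan was counted in 19 of 21 KA EGFP- cells of series 1, 4 of 15 of series 2 and 0 of 27 saline EGFP- cells.

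In EGFP+ cells the same 5 genes were at least 1 higher after KA: Spock3 (6.85), Acan (3.44), Ncan (2.97), Spock1 (2.75) and Spock2 (1.32). None of the 10 was at least 1 lower. Over the 3 saline EGFP+ cells also labelled as passed, Spock2 differed by 0.68 and the other 4 genes stayed at least 1 higher. Over 10102 genes, 58% were at least 1 higher and 8.67% at least 1 lower in this comparison, so a count of 5 of 10 is no more than the background. Spock3 averaged 7.22 (SD 3.28) in KA EGFP+ and 0.37 (SD 0.57) in saline EGFP+ cells, and Ncan averaged 3.66 (SD 3.11) in KA EGFP+ and 0.68 (SD 1.14) in saline EGFP+ cells. For Spock1 the means were 3.50 (SD 3.63) in KA EGFP+ and 0.76 (SD 1.26) in saline EGFP+ cells, and for Spock2 3.54 (SD 2.86) in KA EGFP+ and 2.22 (SD 3.10) in saline EGFP+ cells. Inside the second series, with 3 KA and 5 saline cells, Acan (6.09), Spock3 (5.36), Spock1 (4.20), Spock2 (3.21) and Ncan (2.79) were again at least 1 higher and Tnr (-2.49) at least 1 lower. There 37.5% of 8561 genes were at least 1 higher and 29% at least 1 lower. Those 3 cells differed among themselves: Spock3 had 0, 231.5 and 649.7 CPM, Spock1 0, 81.0 and 363 CPM, and Ncan 0, 0.643 and 832 CPM. All 5 saline EGFP+ cells carried microglia markers (summed level 4656 to 48916 CPM), against 0 to 25628 CPM in KA EGFP+ cells, and the part of this in the differences was not tested.

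Between EGFP classes after KA, no gene was at least 1 higher in EGFP+ than in EGFP- cells with all titles, and Hapln4 was at least 1 lower (-1.05). Over 10039 genes the shares were 15.7% at least 1 higher and 3.94% at least 1 lower. Hapln4 averaged 0.87 (SD 2.24) in EGFP+ and 1.93 (SD 3.32) in EGFP- cells, and at least 10 CPM were reached in 3 of 27 EGFP+ and 8 of 36 EGFP- cells. It was also lower in EGFP+ cells inside the first series (-1.41), the second series (-1.27) and titles 20 to 48 (-2.18), and all of these are smaller than the SD over EGFP- cells. Pooled, Hapln4 stood at 17.7 pooled CPM (95% Poisson interval 17.04 to 18.3) in KA EGFP+ and 132 pooled CPM (95% Poisson interval 130.3 to 133) in KA EGFP- cells, where 1 cell of 56183007 counts gave 45.5% of the counts. Without the cell with most Hapln4 counts of each group, the pooled levels were 5.81 CPM in KA EGFP+ and 90.6 CPM in KA EGFP- cells.

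The other differences between KA EGFP classes turned with the title series. In the first series Hapln4, Spock2 (-1.80), Spock1 (-1.06) and Acan (-1.04) were at least 1 lower in EGFP+ cells and none at least 1 higher, where 19.1% of 10703 genes were at least 1 lower and 6.04% at least 1 higher. In titles 20 to 48, the stretch in which both classes occur together (5 EGFP+ and 21 EGFP- cells), Spock1 (-2.81), Hapln4, Spock2 (-1.58), Tnr (-1.10) and Acan (-1.04) were at least 1 lower and none higher, against 29% of 10314 genes lower and 15.7% higher. The 5 EGFP+ cells there had 0, 0.977, 1.67, 43.9 and 197 CPM of Acan, while the 21 EGFP- cells ranged from 0 to 311 CPM with a median of 41.6. The 3 EGFP+ cells of the second series went the other way: Spock2 (4.56), Acan (4.38), Spock1 (2.52), Spock3 (1.11) and Ncan (1.03) were at least 1 higher, and Tnr (-2.92) and Hapln4 at least 1 lower. The shares over 7142 genes there were 36% higher and 25.1% lower. No direction between EGFP classes held across the series for Acan, Spock1 or Spock2.

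**Figure D4:**
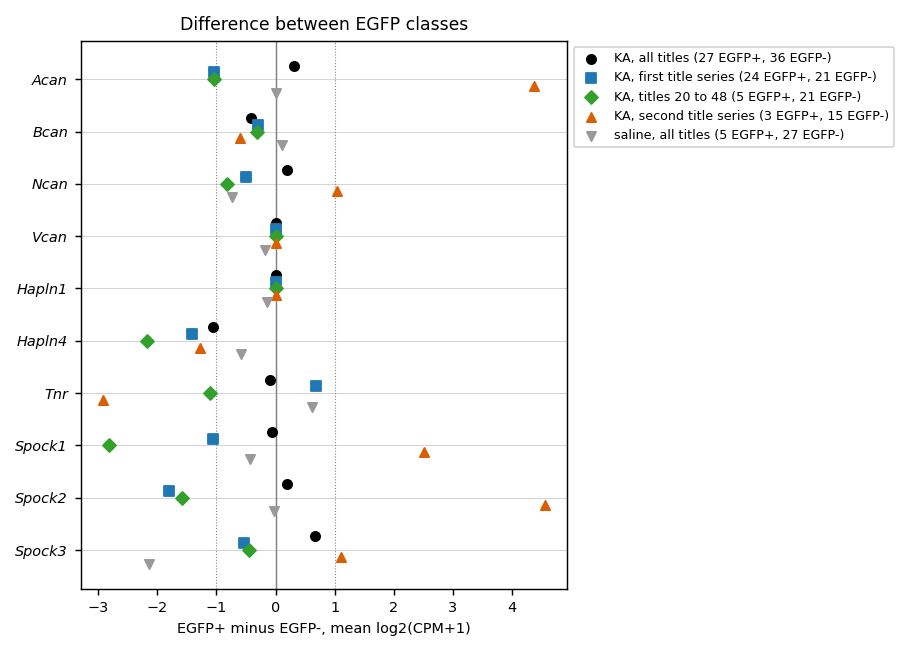
Difference of mean log2(CPM+1) between EGFP+ and EGFP- cells for the 10 genes after KA, with all titles and inside 3 stretches of titles, and after saline; dotted lines mark -1 and 1. Hapln4 lies below 0 in all 5 readings, and Acan lies at -1.04 in the first and 4.38 in the second title series.

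After saline, EGFP+ and EGFP- cells were compared with 5 and 27 cells. Spock3 was at least 1 lower in EGFP+ cells (-2.14), with means of 0.37 (SD 0.57) in EGFP+ and 2.51 (SD 3.37) in EGFP- cells, and no gene was at least 1 higher. Over 8637 genes 12.5% were at least 1 higher and 40.9% at least 1 lower. The remaining differences lay between -0.73 (Ncan) and 0.61 (Tnr). This comparison shares its saline cells, and the comparison of KA classes its KA cells, with those of KA against saline.

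Per kilobase of exon, so that genes can be compared with each other, Spock3 led in 3 of the 4 groups. Its mean level was 69.4 CPM per kb (SD 60.9) in KA EGFP+ cells and 85.8 (SD 90.1) in KA EGFP- cells, against 0.0643 (SD 0.104) in saline EGFP+ and 12.5 (SD 36.4) in saline EGFP- cells. Next in KA EGFP+ cells came Spock1 (11.2 CPM per kb), Acan (10.1), Ncan (9.70) and Spock2 (9.21), neighbours that differ by far less than their SDs of 16.6 to 22.3. In KA EGFP- cells the order was Spock3, Hapln4 (18.1), Spock1 (12.6), Spock2 (7.43), Acan (7.16), Ncan (6.01), Tnr (5.65) and Bcan (4.30), and from Hapln4 on each neighbour lies within the SD of the one before. In saline EGFP- cells Hapln4 (5.60) and Tnr (5.44) came after Spock3, and in saline EGFP+ cells Spock2 (6.66, SD 14.3) led. Vcan and Hapln1 were at or near 0 in all groups.

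A KA cell counted a median of 4 of the 10 genes (range 1 to 7) and a saline cell 3 (range 1 to 7). Of the 42 KA cells with Acan, 38 also counted Spock3, 36 Spock2, 34 Ncan, 26 Spock1, 23 Tnr and 14 Hapln4. Over all 63 KA cells Spock3 was counted in 55, Spock2 in 47, Ncan in 45, Spock1 in 37, Tnr in 32 and Hapln4 in 19. Because aggrecan is best known from parvalbumin interneurons, markers of interneurons in general were counted in the same cells. Of the 42 Acan-counting KA cells, 2 counted Pvalb, 2 Sst, 1 Vip, 1 Slc32a1 and 1 Lhx6, and none Nkx2-1. Gad2 was counted in 14 of them, and overall in 22 of 63 cells after KA and 6 of 32 after saline. In the same 42 cells 36 counted the granule cell factor Prox1, against 51 of all 63 KA cells. Prox1 is 1 of the 10 granule cell markers, and no such count is given here for the others. Gad1 was counted in 40 of the 42 cells and in 56 of all 63 KA cells. The summed level of 8 interneuron markers had a median of 662 CPM in KA EGFP+ and 761 CPM in KA EGFP- cells, against 13.3 CPM in saline EGFP+ and 228.4 CPM in saline EGFP- cells, and ranged from 0 to 4306 CPM over KA cells and from 0 to 2799 CPM over saline cells. Of these markers Lhx6 and Nkx2-1 were at 0 in KA EGFP+ cells and Slc32a1, Sst, Vip and Nkx2-1 in KA EGFP- cells. Gad1 had the highest mean log2 level of the 8 in every group, at 8.46 in KA EGFP- and 6.87 in saline EGFP- cells. Pvalb was counted in 4 of 63 KA and 8 of 32 saline cells, Sst in 3 and 10, and Slc32a1 in 2 and 5. For Vip these counts were 1 and 2, for Lhx6 1 and 1, for Nkx2-1 0 and 1, and for Gad1 56 and 27. The part of these markers in the differences was not tested. Of the astrocyte markers, Gfap was counted in 23 of the 42 cells, Aldh1l1 in 5, Aqp4 in 1 and Gja1 in 0, and of the oligodendrocyte precursor markers Olig1 in 2, Pdgfra in 1, Cspg4 in 1 and Olig2 in 0. In all, 33 of 63 cells after KA and 13 of 32 after saline held Gfap. For the other astrocyte markers the counts are over whole groups. Slc1a2 was counted in 24 of 27 KA EGFP+ and 28 of 36 KA EGFP- cells. For S100b these counts were 18 and 12, for Aldoc 10 and 4, for Sox9 6 and 12 and for Agt 2 and 13. They were 3 and 4 for Slc1a3, 3 and 3 for Fgfr3 and 0 and 0 for Gjb6. The summed level of 12 astrocyte markers had a median of 437 CPM in KA EGFP+ and 206.4 CPM in KA EGFP- cells, against 4.92 CPM in saline EGFP+ and 310.1 CPM in saline EGFP- cells, and its part in the differences was not tested.

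**Figure D5:**
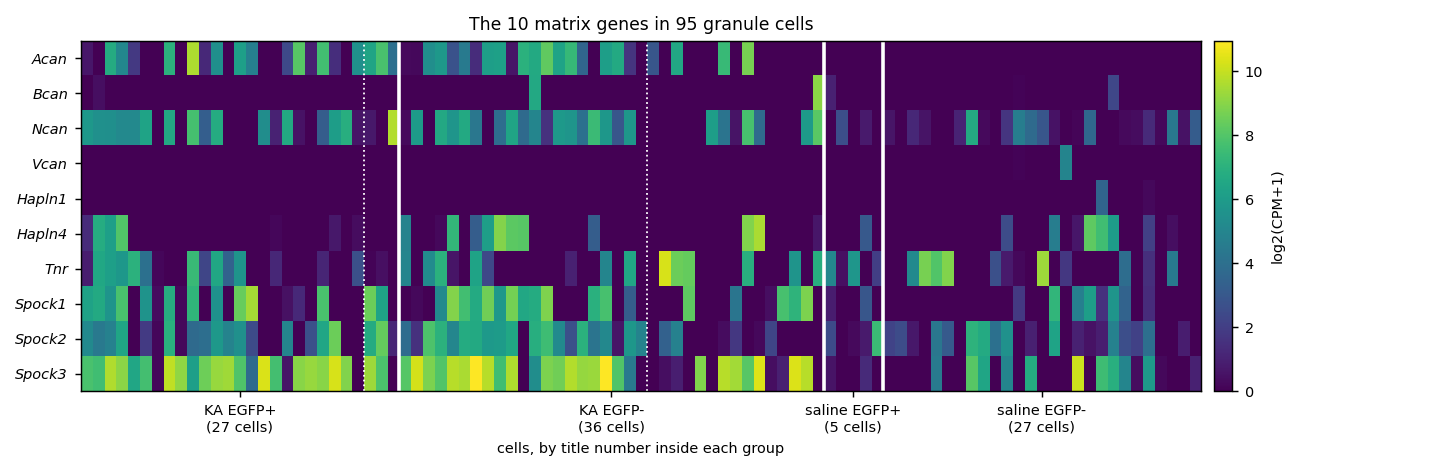
Level of the 10 genes (rows) in the 95 cells (columns) as log2(CPM+1), with cells ordered by title number inside each group; solid lines part the groups and dotted lines part the title series in KA cells. At least 10 CPM of Acan were reached in 10 of 24 KA EGFP+ cells of the first title series and 3 of 3 of the second. In KA EGFP- cells this held for 13 of 21 and 3 of 15. The Vcan and Hapln1 rows are at 0 in all 63 KA cells.

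Genes with the most similar pattern were taken from 9659 genes counted in 20 or more of the 95 cells, by Pearson correlation of log2(CPM+1), for the 7 members counted that often. The closest to Acan were Zfp1 (r = 0.57), Sorcs3 (0.56) and Tll1 (0.55), the last an astacin metalloprotease gene. Among the genes close to Spock3 were Bok (0.67) and Lgi2 (0.61). Bok is also 1 of 7 fixed markers of pyramidal cells, whose summed level had a median of 233.8 CPM in KA EGFP+ and 116 CPM in KA EGFP- cells and 0 CPM in both saline groups. That sum includes Bok itself, counted in 18 of 27 KA EGFP+ and 21 of 36 KA EGFP- cells. For Wfs1 these counts were 14 and 10, for Coch 8 and 6, and for Fibcd1 2 and 3. Pou3f1 and Mpped1 were each counted in 1 and 1 of these cells, and Iyd in 0 and 0. Spock2 was closest to Sphk2 (0.56), Dync1h1 (0.54) and Gm20388 (0.53), and Spock1 to Nell1 (0.55), Slc7a8 (0.53) and Bmp3 (0.52). Tnr was closest to Kcnt2 (0.57) and Hapln4 to Cidea (0.51), and no gene reached 0.5 with Ncan. After the mean of each group and title series was taken out, the r was 0.24 for Acan with Sorcs3 and 0.45 with Zfp1, 0.55 for Spock3 with Bok and 0.57 for Tnr with Kcnt2. These are descriptions over single cells, in which the group, the title series and the number of genes counted differ between cells.

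Genes that build, cut or bind the net differed in both directions. These lists are given by their counts and medians. Up to 4 genes of each list are also named, chosen by the largest difference between KA and saline EGFP- cells. They had to be counted in 20% or more of these cells and to differ by at least 1. They also had to have the same sign inside the second series, so that shared sign follows from the choice. Of the genes counted in 20% or more of the EGFP- cells, 28.8% were at least 1 higher and 9.64% at least 1 lower with all titles. Inside the second series these shares were 9.08% and 36.4%. The lists also hold genes counted less often: only 3 of 12 hyaluronan, 5 of 11 tenascin and SPARC and 8 of 21 chondroitin synthesis genes passed that 20%. So did 7 of 19 proteases and inhibitors and 11 of 13 receptors and partners. Over all genes with any count the shares were 16.6% and 6.05% with all titles, and 5.97% and 20.3% inside the second series. Of 13 net receptors and partners, 6 were at least 1 higher and 1 at least 1 lower in KA than in saline EGFP- cells, but 2 higher and 6 lower inside the second series. Ptprs, a receptor for chondroitin sulphate chains, was 3.14 higher, with 7.08 (SD 2.97) in KA and 3.93 (SD 3.20) in saline EGFP- cells (1.75 inside the second series). Nptxr, the neuronal pentraxin receptor, differed by 2.02 (0.15), Cntn1, a contactin that binds tenascin-R, by 1.41 (0.43), and Nptx1, a secreted pentraxin, by -1.45 (-2.29). Of 19 proteases and inhibitors, 3 were at least 1 higher and 1 lower (2 and 3 in the second series). Adamts1, a protease that cleaves lecticans, was lower in KA cells, with a difference of -2.60 (-4.07 inside the second series) and 2.85 (SD 3.65) in KA and 5.45 (SD 4.11) in saline EGFP- cells. The metalloprotease inhibitors Timp2 (2.38; 1.77) and Timp4 (1.45; 2.12) were higher.

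Of 12 hyaluronan genes 1 was at least 1 higher and none lower after KA (0 and 0 in the second series), namely Cemip2, a cell-surface hyaluronidase (2.48; 0.54 in the second series). Of 21 chondroitin synthesis genes 3 were at least 1 higher and 1 lower (0 and 5 in the second series), and B3galt6, which builds the linker to the core protein, differed by 1.22 (0.10). Of 11 tenascin, SPARC and other proteoglycan genes none was at least 1 higher and 2 lower (0 and 4 in the second series): Sparcl1 (-2.22; -3.31) and Sparc (-2.20; -1.53), matricellular genes that are also expressed by glia and vessels. Medians of these 3 lists were 0, 0.25 and -0.50, that of the proteases and inhibitors 0 and that of the receptors and partners 0.79. The lists also hold genes counted rarely or never. Over list genes with any count the medians were 0.14 for hyaluronan, 0.26 for chondroitin synthesis and -0.50 for the tenascin and SPARC list. They were -0.02 for proteases and inhibitors and 1.07 for receptors and partners. The median over all genes with any count was 0.09, and over the 9471 more often counted genes 0.43. Inside the second series the medians were -0.08 for hyaluronan, -0.21 for chondroitin synthesis and -0.79 for the tenascin and SPARC list. They were -0.19 for proteases and inhibitors and -0.60 for receptors and partners. Over list genes with any count these 5 medians were -0.27, -0.46, -0.82, -0.21 and -0.98, in the same order. The median there was -0.17 over all genes with any count and -0.58 over the 8175 more often counted genes.

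Between EGFP+ and EGFP- cells after KA, B3gat3 (2.14) and Chpf (1.68) of chondroitin synthesis, the receptors Rtn4rl1 (1.67) and Rtn4r (1.56), the protease gene Adamts20 (1.47) and Sparc (1.28) were at least 1 higher in EGFP+ cells with all titles and above 0 inside the first series, which is how they were chosen. With all titles 5 of 21 chondroitin synthesis genes, 2 of 13 receptors and partners and 1 of 19 proteases and inhibitors were at least 1 higher. So were 1 of 11 tenascin and SPARC genes and 0 of 12 hyaluronan genes, and none of these lists had a gene at least 1 lower. The lists also hold genes counted rarely or never. Of all genes with any count 9.22% were higher and 2.28% lower, and of the 10039 more often counted genes 15.7% and 3.94%. Inside the first series 2 of 21 chondroitin synthesis genes were at least 1 higher and 2 lower, 4 of 13 receptors and partners and 1 of 12 hyaluronan genes were lower and none higher, and 1 of 11 tenascin and SPARC genes was higher. The shares there were 4.24% higher and 12% lower over all genes with any count. Over the 10703 more often counted genes they were 6.04% and 19.1%.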

How the data were processed

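RNA of single patched cells was amplified and made into libraries with Nextera XT, per the labels' protocols, which name no molecular identifiers or strand-specific step. The authors deposited counts of reads per gene for 115 cells and for the 95 that passed their quality control, with a normalized signal for the same cells. The submitters' processing notes name Trimmomatic, STAR, featureCounts, kallisto and GRCm38. Which of these made the counts is not given in the sources used here. The 92 spike-in rows (6 counts in kept cells) were left out of library totals.

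CPM was the count divided by the cell's total over 22870 genes. Means, SDs and correlations used log2(CPM+1). Poisson intervals (95%) take reads as independent and Clopper-Pearson intervals (95%) take cells as independent, and neither covers the spread between mice. PCR reads are not independent molecules, so the Poisson intervals are too narrow even for counting error and the floor of 3 counts is no strict limit. Groups came from the labels. Each group is 1 sample, so no test was made. Gene positions and exon lengths are from GENCODE M21 (GRCm38) and promoters from RefSeq (GRCm38.p6).

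The 10 genes and the related lists were chosen with earlier results of these data known. From each related list up to 4 genes were named by the largest KA minus saline difference in EGFP- cells, of size 1 or more, with the same sign in the second title series, and up to 2 by the EGFP difference after KA with the same sign in the first series. Genes of similar pattern were the 3 with the highest r, named at 0.5 or more, of which 1 is not reported here. Alternatives covered the pseudocount, scaling, depth, cell filters, title series and each saline EGFP+ cell. The scripts were tested on simulated data. Python 3.11.15, numpy 2.4.6, pandas 2.3.3, scipy 1.17.1, R 4.3.3 and edgeR 4.0.16 (TMMwsp scaling factors only) were used.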

Additional observations from a re-analysis of the deposited data

Results flagged for a closer look

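In the 5 saline EGFP+ cells Bcan stood at 0.99 on the log2(CPM+1) scale in 1 cell and at 0 in the other 4, and Hapln4 stood at 3.04 in 1 cell and at 0 in the other 4, so in each case 1 cell lies far from the rest. For a gene counted in 1 of 5 cells this gap follows from the count alone, so it is a description of these cells.

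Among the 20 cells that quality control left out, some had levels above those of every kept saline cell. A left-out KA EGFP+ cell had 75.0 CPM of Acan (83 of 1107068 counts), against 0 in all kept saline cells. A left-out saline EGFP- cell with 1102136 counts had 149.7 CPM of Ncan and 225.02 CPM of Spock2, against at most 102 and 178 CPM in kept saline cells. A left-out KA EGFP- cell with 612 genes counted had 10004 CPM of Spock3 (10085 of 1008081 counts), against at most 1125 CPM in kept saline cells.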

How the results depend on the processing

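Over 21 other settings, 649 of 660 differences of the 10 genes moved by less than the SD over cells, 10 moved by more, and 1 of size 1 or more changed sign: Spock2 between KA and saline EGFP- cells, at -1.38 inside the second title series. Of the others, 55 changed sign from a reported size under 1. The SD over cells is wide beside these differences, such as 3.18 against 3.13 for Acan between KA and saline EGFP- cells. A difference could therefore vanish and still count as moved by less than the SD, so the 649 does not measure stability. Between KA EGFP classes the range over settings was -1.04 to 4.38 for Acan, -2.81 to 2.52 for Spock1 and -1.80 to 4.56 for Spock2, and between KA and saline EGFP- cells it was -0.37 to 1.05 for Tnr. Between KA and saline cells, Acan, Ncan, Spock1 and Spock3 were at least 1 higher under all 14 other settings in EGFP- cells and all 18 in EGFP+ cells. Between KA EGFP classes the count of genes at least 1 higher was 5 inside the second title series, against 0 with all titles. Between saline EGFP classes that count was 1 with a pseudocount of 0.1 and 1 with the authors' normalized signal, against 0. Leaving out each saline EGFP+ cell in turn gave 0 to 1 genes at least 1 higher than in saline EGFP- cells, and 4 to 5 genes at least 1 higher in KA EGFP+ than in saline EGFP+ cells. The cause was not tested. The pooled levels without the cell that held most counts of a gene were chosen after seeing the data.

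All 5 saline EGFP+ cells carried microglia markers, and comparisons with that group have no value without such cells. No paired analysis was possible because replicate numbers follow accession order and no result comes from a test. The SD over cells does not measure the spread between mice, and a count of 0 in these libraries limits cells with a count, not cells expressing the gene.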
